A study of Mus musculus with 22 samples.

Results

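The transcripts of 5 Siglec genes, Siglece, Siglech, Siglec1, Cd33 and Cd22, were followed in CD11b+ cells from the mouse brain, 5 of the 56691 genes in the count tables. Siglece was selected on its measured values, namely the difference between the HIE and control groups on P7 and the range within the P14 HIE group, and the other 4 genes were added as members of the same family with those results known. For Siglece these values are therefore given as a description. The question was how the levels of this family differed between hypoxic-ischemic encephalopathy (HIE) and control animals, between both ages, and between animals and litters of the same group.

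Bulk RNA sequencing covered 22 libraries from 20 wildtype mice of the outbred CF-1 stock, with 4 animals in each of 5 groups. In the HIE groups the dam was given LPS, an immune-activating component of bacterial walls, late in gestation and the pups went through progressive hypoxia on P6, whereas controls had normoxia. The groups were P7 control, P7 HIE, P14 control, P14 hypoxia and P14 HIE, and how the hypoxia animals were treated is known only from that label. Libraries of the same animal were summed (2 P14 HIE animals had 2 libraries each). The labels of the P7 controls read day 8, 9, 10 and 11, for 1 pup each, and the group is called P7 here. All P7 HIE labels read day 7, so labelled day and treatment cannot be told apart in the P7 comparison. Animals sharing a name prefix are called a litter here, each group held 2 such litters of 2 animals, and no litter had animals of 2 groups, so treatment and litter cannot be told apart. P7 and P14 counts were deposited in separate tables, so age and table cannot be told apart either. All P7 HIE animals are labelled male and each other group holds 2 animals labelled male and 2 labelled female. The p-values measure the spread between these animals, counted as 4 per group without regard to litter. They do not allow for likeness between littermates, so with 2 litters per group they can be too small.

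Siglecs are receptors of the immunoglobulin family that bind sialic acids, the acidic sugars at the ends of glycans on nearly every vertebrate cell. Many carry inhibitory motifs in their cytoplasmic tail that recruit the phosphatases encoded by Ptpn6 and Ptpn11 and dampen immune signalling, while others lack such motifs and signal through the adaptor Tyrobp. In the brain, microglia carry several of them, and binding to sialic acids on neurons is known to restrain phagocytosis and inflammatory activity. Siglece is an inhibitory receptor of mouse myeloid cells. Siglech lacks inhibitory motifs, pairs with Tyrobp and is widely used as a marker of microglia and plasmacytoid dendritic cells. Siglec1, or sialoadhesin, is a macrophage adhesion receptor without inhibitory motifs. Cd33 is a myeloid Siglec whose human counterpart is linked to the risk of Alzheimer's disease. Cd22 restrains the B cell receptor and is also known from microglia.

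Of the 5 genes, 4 lie on chromosome 7 of GRCm39. Siglece (ENSMUSG00000030474.10) spans chr7:43298405-43309607 on the minus strand, and Cd33 (ENSMUSG00000004609.12) lies on the same strand at chr7:43173634-43193875. Cd22 (ENSMUSG00000030577.15) is at chr7:30564827-30579767 on the minus strand, next to Mag, another Siglec. Siglech (ENSMUSG00000051504.19) is at chr7:55417926-55429195 on the plus strand, and Siglec1 (ENSMUSG00000027322.12) is at chr2:130911140-130928685 on the minus strand. These are whole genes, whose canonical transcripts have 7 exons in Siglece, 6 in Siglech and in Cd33, 21 in Siglec1 and 15 in Cd22. The share of 75-base stretches of their transcripts that also occur in another gene's transcripts was 0% for Siglece, Siglech and Cd22, 0.041% for Cd33 and 0.58% for Siglec1.

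The 200 bases before the transcription start are shown for the pair of genes with the widest gap between the P7 groups, Siglece and Cd22, and for Siglech, whose level followed the microglia markers. Capitals mark GAGGAA or its reverse complement TTCCTC, the core recognised by the myeloid ETS factor PU.1. The sequences were read 5′ to 3′ on the gene's own strand from GRCm39, with the start of the GENCODE M39 canonical transcript.

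Siglece, chr7:43309608-43309807, minus strand: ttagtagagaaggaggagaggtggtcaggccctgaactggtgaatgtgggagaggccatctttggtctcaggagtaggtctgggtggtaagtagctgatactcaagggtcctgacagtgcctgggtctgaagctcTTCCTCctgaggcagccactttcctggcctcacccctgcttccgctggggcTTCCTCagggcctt

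Cd22, chr7:30579695-30579894, minus strand: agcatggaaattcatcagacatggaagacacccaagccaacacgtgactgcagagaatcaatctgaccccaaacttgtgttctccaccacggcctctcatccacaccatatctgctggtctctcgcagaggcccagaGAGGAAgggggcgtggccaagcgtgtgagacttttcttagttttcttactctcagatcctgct

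Siglech, chr7:55417732-55417931, plus strand: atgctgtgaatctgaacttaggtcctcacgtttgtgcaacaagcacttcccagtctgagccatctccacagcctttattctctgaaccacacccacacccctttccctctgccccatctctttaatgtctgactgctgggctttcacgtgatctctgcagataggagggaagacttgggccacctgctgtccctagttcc

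The Siglece window held the reverse complement 2 times, 65 and 14 bases before the start, and the Cd22 window held the forward motif 1 time, 63 bases before the start. The windows of Siglech, Siglec1 and Cd33 held neither of these sequences, and other forms of the site were not searched. Of 21770 promoters of the same length, 4096 (18.8%) held at least 1 match on either strand, so a match is common, and the search describes letters only.

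Depth and cell content were checked before the genes. Total counts per animal lay between 70191541 and 83469037 in P7 controls, 73617515 and 79571065 in P7 HIE, and between 29751486 and 76166750 over the P14 groups. A floor of 3 counts, below which a level was not distinguished from 0, corresponded to 0.0339 to 0.096 CPM (counts scaled to library size), and covers counting error only. The label gives the cells as monocytes (CD11b+), but the defining genes of microglia were above those of monocytes. P2ry12 was at 139 CPM or more and Tmem119 at 44.5 CPM or more in every animal, while Ccr2 was at 28.6 CPM or less and Ly6c2 at 5.30 CPM or less. All 9 monocyte genes, which include Fn1 and Vcan, summed to 762 to 2432 CPM in P7 controls, 700 to 867 CPM in P7 HIE and 404 to 714 CPM over the P14 groups. In the P7 control litter P6H63 they summed to 2432 and 1872 CPM, beside 2327 and 1505 CPM for the microglia markers. The microglia-marker score, the mean log2 CPM of 15 genes that do not include a Siglec, was 9.32 to 9.50 in P7 HIE and 9.26 to 9.97 over the P14 groups. Among the P7 controls it was 8.96 and 9.15 in litter P6H55 but 6.42 and 5.81 in litter P6H63. The P6H63 preparations thus stood apart from the other 18, and results that rest on them are given with and without them. The P6H55 scores were also below those of every P7 HIE and P14 animal, so the P7 groups did not overlap in this score. In bulk preparations, fewer cells of a type and less RNA per cell cannot be told apart. Xist and Ddx3y matched the sex label in 18 of 20 animals. The P7 HIE library labelled male with the lower number of litter N5 had Xist at 2316 CPM and no Ddx3y counts, and the P6H55 control labelled female had neither transcript above 10 CPM.

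Siglece was either nearly silent or clearly transcribed, with nothing in between. In P7 HIE pups its level was 16.0 and 17.5 CPM in litter N5 and 16.1 and 16.4 CPM in litter N8. In P7 controls it was 0.34 and 0.25 CPM in litter P6H55 and 0.216 and 0.418 CPM in litter P6H63. The groups did not overlap, and both control litters were at the same low level although their microglia-marker scores were far apart. Counts were 1150 to 1330 per HIE pup and 18 to 37 per control.

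At P14, 11 of the 12 animals were at the low level. P14 controls had 0.0943 and 0.357 CPM in litter P4H4 and 0.16 and 0.292 CPM in litter P6H8. P14 hypoxia animals had 0.268 and 0.028 CPM in litter P6H7 and 0.213 and 0.184 CPM in litter P6H9. In P14 HIE, the male of litter P4H1 had 14.6 CPM, whereas the female of the same litter had 0.207 CPM and both P6H12 animals had 0.201 and 0.212 CPM. This male was just below the lowest P7 HIE pup, and the other 3 animals of its group lay within the range of the P14 controls.

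Between the 5 high animals, the lowest at 14.6 CPM, and the other 15, the highest at 0.418 CPM, lay a 35.0-fold gap. The 621 counts of the P4H1 male came from 1 library. The 15 low animals had 1 to 37 counts, 2 of them at or below 3. Each of the female's 2 libraries was low on its own, with 10 and 4 counts, as were those of the P6H12 male with 11 and 3 counts. All 5 high animals are labelled male, but only 4 of them had Ddx3y above 10 CPM, and 7 other animals labelled male had 0.16 to 0.357 CPM. RSEM gave whole counts for Siglece in all 22 libraries, so no fraction of a read was assigned to it.

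**Figure D1:**
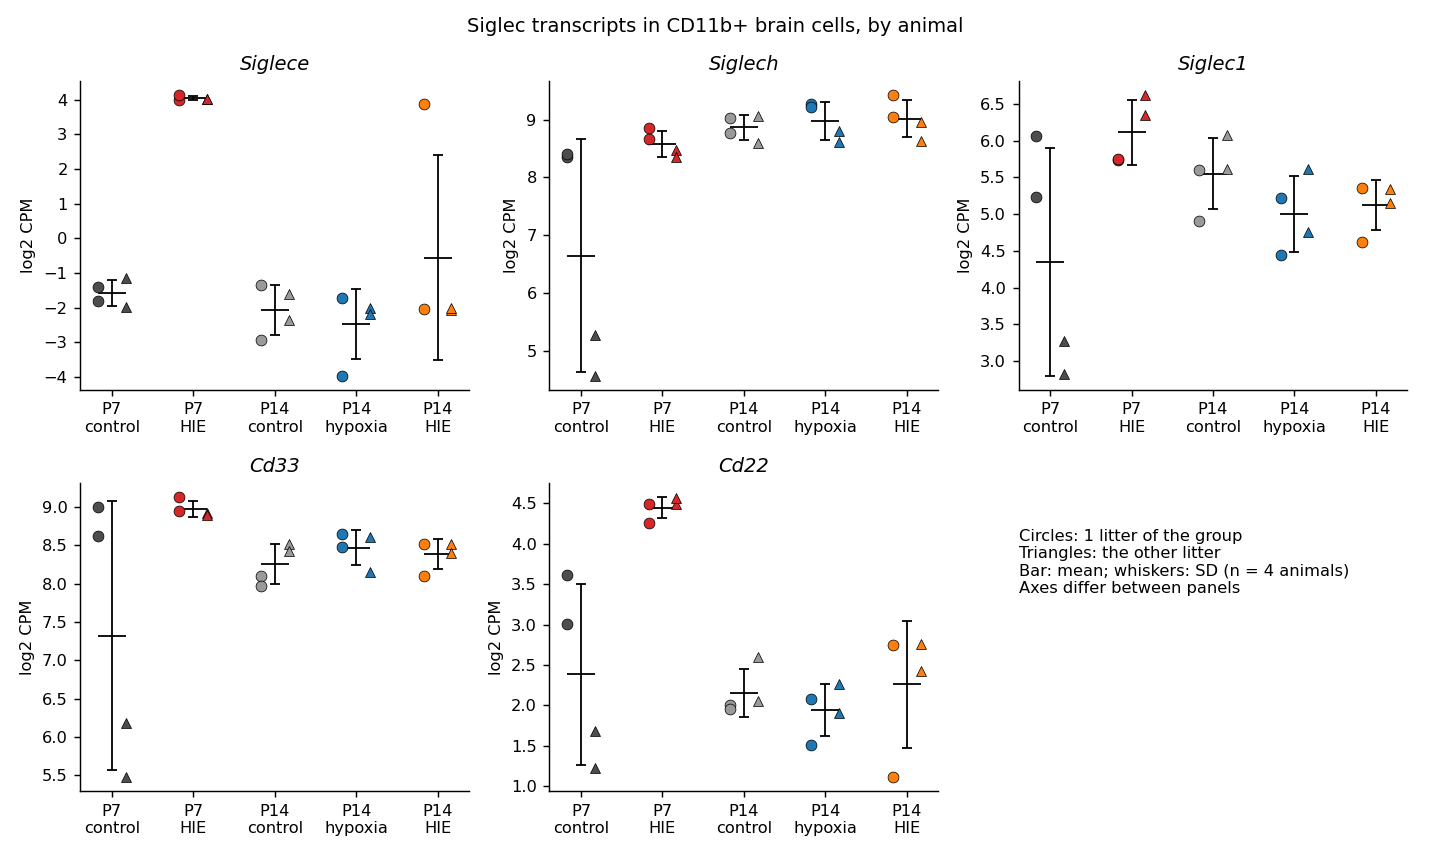
Log2 CPM of the 5 Siglec genes in each animal, by group. Circles and triangles are the 2 litters of a group, bars the mean and whiskers the SD (n = 4). Siglece was at about 4 log2 CPM in all P7 HIE pups and in 1 P14 HIE male, and the 2 P6H63 controls (triangles) were far below their group for Siglech, Siglec1 and Cd33.

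Siglech was the most abundant of the 5 genes per length of transcript in every group. In P7 HIE its level was 403 and 462 CPM in litter N5 and 354 and 325 CPM in litter N8. In P7 controls it was 327 and 338 CPM in litter P6H55 but 38.3 and 23.6 CPM in litter P6H63. P6H55 thus fell inside the range of the HIE pups, and the P6H63 pair fell below all other animals. P14 animals had 386 to 534 CPM in controls, 391 to 617 CPM with hypoxia and 398 to 688 CPM with HIE, and these groups overlapped.

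Cd33 showed the same split among P7 controls. Its level was 395 and 512 CPM in P6H55 and 72.7 and 44.5 CPM in P6H63, beside 477 to 561 CPM in P7 HIE. In P14 animals it was 251 to 367 CPM in controls, 283 to 401 CPM with hypoxia and 275 to 368 CPM with HIE. No P14 animal reached the lowest P7 HIE pup.

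Siglec1 was at 53.2 and 53.9 CPM in litter N5 and at 81.1 and 98.3 CPM in litter N8, so the HIE litters were apart from each other. P7 controls had 37.6 and 66.9 CPM in P6H55 and 9.64 and 7.08 CPM in P6H63. P14 levels were 30.0 to 67.7 CPM in controls, 21.7 to 49.1 CPM with hypoxia and 24.7 to 41.1 CPM with HIE.

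Cd22 was the gene besides Siglece whose P7 groups did not overlap. HIE pups had 22.4 and 19.0 CPM in N5 and 22.4 and 23.6 CPM in N8. Controls had 8.02 and 12.2 CPM in P6H55 and 3.17 and 2.29 CPM in P6H63. At P14 it was 3.82 to 6.02 CPM in controls, 2.80 to 4.75 CPM with hypoxia and 2.12 to 6.76 CPM with HIE, all below the lowest P7 HIE pup. The lowest of the P14 HIE animals, at 2.12 CPM, was the P4H1 male with high Siglece, while its sister had 6.69 CPM. That male was also the lowest of its group for Siglec1 and Cd33.

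Levels were compared between genes per kilobase of exon. In P14 controls the order was Siglech at 96.0 ± 14.6 CPM per kb, Cd33 at 33.4 ± 5.98, Siglec1 at 6.82 ± 2.16, Cd22 at 0.889 ± 0.204 and Siglece at 0.0541 ± 0.0288 (SD, n = 4). The order was the same in P7 HIE, where Cd22 at 4.34 ± 0.389 CPM per kb and Siglece at 3.95 ± 0.172 (SD, n = 4) were within their spread of each other. In P7 controls the SDs of Siglech (37.1 ± 35.6) and Cd33 (27.6 ± 25.2) exceeded the step between them.

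Within groups, the spread between litters and between littermates was set against that of 24503 genes that passed the low-count filter over all animals. Siglece passed this filter over all animals, but not in the comparisons within P14. The highest and lowest P14 HIE animals differed by 5.95 log2 CPM in Siglece, and the median range over all genes in that group was 0.72. This Siglece range was among the values used to choose the gene, so it is given as a description and not ranked. In P7 HIE the Siglece range was 0.13, and 84.8% of the genes had a range at least as wide. Among P7 controls the wide ranges were those of Siglech (3.84), Cd33 (3.53) and Siglec1 (3.23), which 1.06%, 1.84% and 3.09% of the genes reached, while Siglece differed by 0.85 there.

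Over the 10 litters the median difference between littermates was 0.18 log2 CPM for Cd33, 0.23 for Siglech, 0.41 for Cd22, 0.57 for Siglece and 0.58 for Siglec1. In litter P4H1 the male and female differed by 5.92 log2 CPM in Siglece and by 1.64 in Cd22. In Siglece the P6H7 littermates differed by 2.25 and the P4H4 littermates by 1.59, at counts of 1 to 14 per animal. Between the P4H1 animals 14 genes, Siglece included, differed at least as much as Siglece, 7 of them on X or Y. The P4H1 male set the range used to choose Siglece, so this count is a description. For Cd22, 3.09% of the genes differed at least as much between the P4H1 animals. The P7 control litters differed from each other by 3.46 log2 CPM in mean Siglech level, 2.98 in Cd33, 2.60 in Siglec1 and 1.86 in Cd22, but by 0.04 in Siglece.

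**Figure D2:**
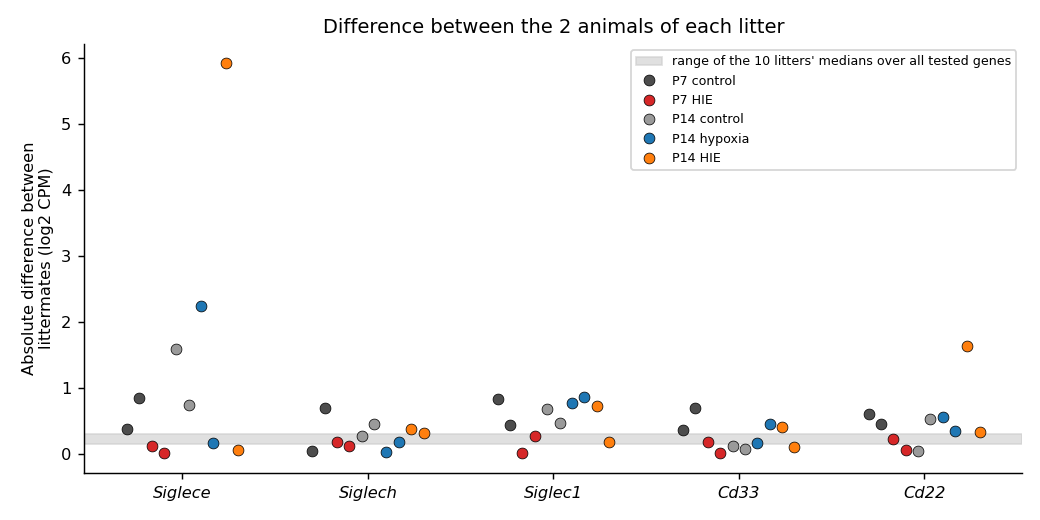
Absolute difference in log2 CPM between the 2 animals of each litter, 1 point for each of 10 litters and each gene, coloured by group. The grey band spans the litters' medians over all genes, and the P4H1 litter of the P14 HIE group stands at 5.92 for Siglece and at 1.64 for Cd22.

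The levels were next set beside the microglia-marker score. Over the 20 animals Siglech followed the score with a Pearson r of 1.00 (Spearman 0.95), and without the P6H63 pair with 0.94 (n = 18). Cd33 (0.88) and Siglec1 (0.72) followed it over 20 animals, but with -0.36 and -0.46 over 18, so the P6H63 pair set those values. For Siglece r was 0.09 over 20 animals and -0.14 over 18, and for Cd22 it was 0.26 and -0.46. These are descriptions over animals that share groups and tables. The defining B cell genes were near 0 in every animal, with Ms4a1 at 0.788 CPM or less and Pax5 at 0.869 CPM or less, all below the lowest Cd22 level. The 8 B cell genes summed to 278 to 381 CPM in P7 HIE, 74.0 to 268 CPM in P7 controls and 164 to 259 CPM over the P14 groups, with no gene at 0 in a group. The 10 border macrophage genes, which include Mrc1 and Stab1, summed to 3953 to 6465 CPM in P7 HIE, 728 to 5437 CPM in P7 controls and 2368 to 4118 CPM at P14. The 10 neutrophil genes summed to 70.2 to 188 CPM in P7 HIE and 15.9 to 174 CPM in P7 controls. At P14 the sums were 93.5 to 128 CPM in controls, up to 295 CPM with hypoxia and 76.9 to 450 CPM with HIE. The part of these lists in the Siglec levels was not tested.

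**Figure D3:**
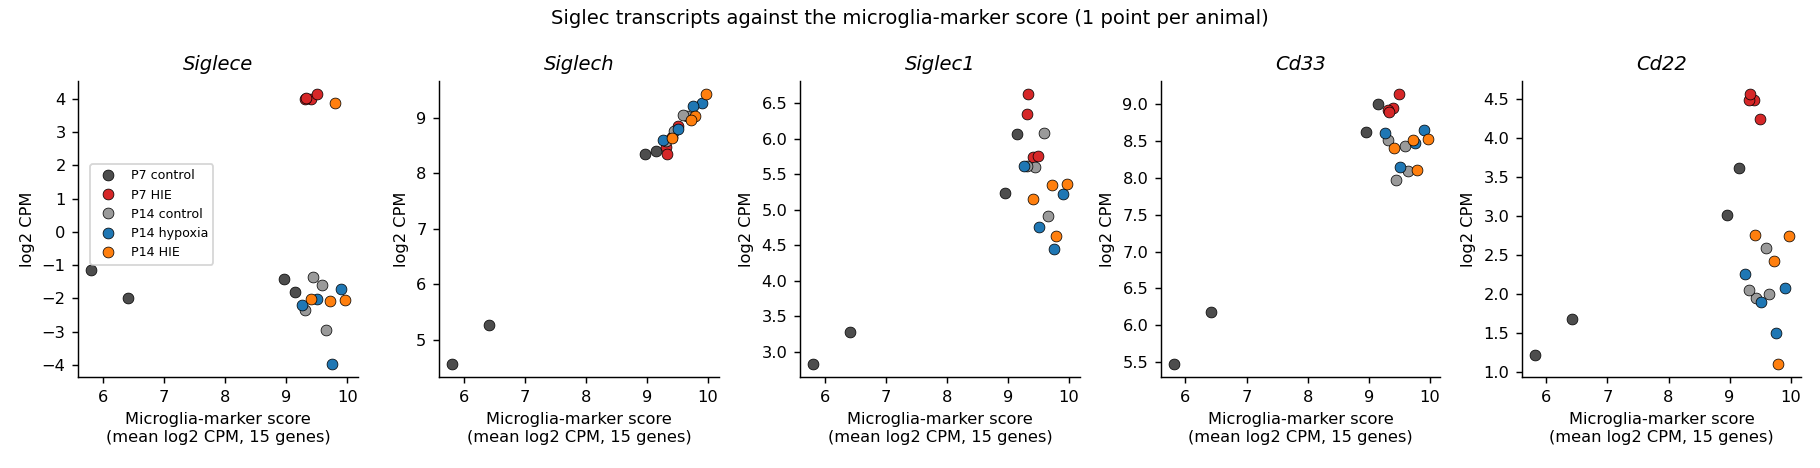
Log2 CPM of each Siglec gene against the microglia-marker score (mean log2 CPM of 15 genes), 1 point per animal, coloured by group. The 2 P6H63 controls lie at scores of 6.42 and 5.81, Siglech follows the score across all animals, and Siglece does not.

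Between HIE and control pups on P7, none of the 4 genes other than Siglece was called with edgeR's quasi-likelihood test at an adjusted p-value under 0.05, where 15 of 22517 genes (0.0666%) were called. Among these 4 genes 1, Cd22, had an unadjusted p under 0.05, as in 27.3% of all genes, and DESeq2 called the same 1, beside 13.4% of all genes. For Cd22 the HIE pups were higher by 1.75 on the log2 scale (SE 0.49, edgeR adjusted p = 0.15, DESeq2 adjusted p = 0.0124). Its groups did not overlap, as in 17.1% of genes. The log2 fold change of Siglec1 was 1.23 (SE 0.68, adjusted p = 0.252), Siglech 1.07 (SE 0.80, adjusted p = 0.373) and Cd33 0.96 (SE 0.71, adjusted p = 0.366) with edgeR. The median of the 4 was 1.15, beside -0.08 over all tested genes. For Siglece the log2 fold change was 5.73 (SE 0.23), given as a description.

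These P7 values depended on the control litter. Against P6H63 alone, edgeR called all 4 (log2 fold changes of 3.67 for Siglech, 3.13 for Siglec1, 3.14 for Cd33 and 3.03 for Cd22), in a fit that called 13904 of 23780 genes. Against P6H55 alone it called none of the 4, in a fit that called 26 of 23274 genes. The log2 fold changes there were 1.10 for Cd22 (SE 0.18, edgeR adjusted p = 0.114), 0.45 for Siglec1, 0.21 for Siglech and 0.14 for Cd33. Siglece had 5.72 and 5.78 in these fits. Relative to the microglia-marker score, the P7 difference with all 4 controls was 0.26 for Cd22, 0.13 for Siglech, -0.04 for Siglec1, -0.15 for Cd33 and 3.83 for Siglece. For Cd22 the relative level was -5.95 and -5.54 in P6H55, -4.74 and -4.59 in P6H63 and -5.25 to -4.77 in P7 HIE. In the same order, Siglech had -0.61 and -0.75, -1.16 and -1.24, and -0.98 to -0.65. Siglec1 had -3.73 and -3.09, -3.14 and -2.98, and -3.75 to -2.71. Cd33 had -0.33 and -0.15, -0.23 and -0.33, and -0.45 to -0.37. Siglece had -10.4 and -11.0, -8.41 and -6.95, and -5.40 to -5.29.

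On P14, none of the 4 tested members was called by edgeR in any comparison, none had an unadjusted p under 0.05 and DESeq2 called none. Siglece did not pass the low-count filter in these comparisons. Whole-table calls were 0.00478% of 20934 genes for HIE against control, 0.00955% of 20953 for hypoxia against control and 0.00955% of 20949 for HIE against hypoxia. The largest of the differences was in Siglec1, whose log2 fold change was -0.48 (SE 0.24, edgeR adjusted p = 0.554) for HIE and -0.56 (SE 0.29, edgeR adjusted p = 0.566) for hypoxia. Both used the same 4 controls. Between HIE and hypoxia Siglec1 differed by 0.06 (SE 0.24) and Cd22 by 0.42 (SE 0.34). No member's groups were apart in any of these comparisons, beside 5.49%, 5.21% and 2.53% of all genes. The SEs of the 4 genes over these comparisons were 0.14 to 0.34.

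Between P7 and P14, edgeR called all 4 genes other than Siglece in the HIE animals, in a comparison that called 46.0% of 22579 genes. Cd22 fell by 2.05 on the log2 scale (SE 0.29, edgeR adjusted p = 0.000332), from 21.9 ± 1.96 to 5.23 ± 2.17 CPM (SD, n = 4). Siglec1 fell by 1.00 (SE 0.22, edgeR adjusted p = 0.00419) and Cd33 fell by 0.57 (SE 0.11, edgeR adjusted p = 0.00222). Siglech rose by 0.46 (SE 0.17, edgeR adjusted p = 0.042), a call that was lost in 6 of 8 fits without 1 animal. Cd22, Siglec1 and Cd33 did not overlap between the ages, beside 43.9% of all genes. For Siglece, given as a description, the levels did not overlap either. Its log2 fold change was -2.12 (SE 1.14), and without the P4H1 male it was -6.30.

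In controls, edgeR called none of the 5 genes between the ages, beside 33.0% of 22320 genes called, none had an unadjusted p under 0.05 and DESeq2 called none. Siglech had the widest log2 fold change, 1.42 (SE 0.79, edgeR adjusted p = 0.191), and was the only member whose groups did not overlap, beside 37.1% of genes. Without litter P6H63, edgeR called 6920 of 22151 genes. In that fit Cd22 fell by 1.13 (SE 0.25, edgeR adjusted p = 0.0133) and Siglech rose by 0.54 (SE 0.15, edgeR adjusted p = 0.0308). There Cd33 had -0.51 (SE 0.18, edgeR adjusted p = 0.0595) and Siglec1 had -0.05. Siglece had -0.37 (SE 0.45, edgeR adjusted p = 0.551) with all animals. Whether the age differences of HIE and control animals were unequal was not tested.

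**Figure D4:**
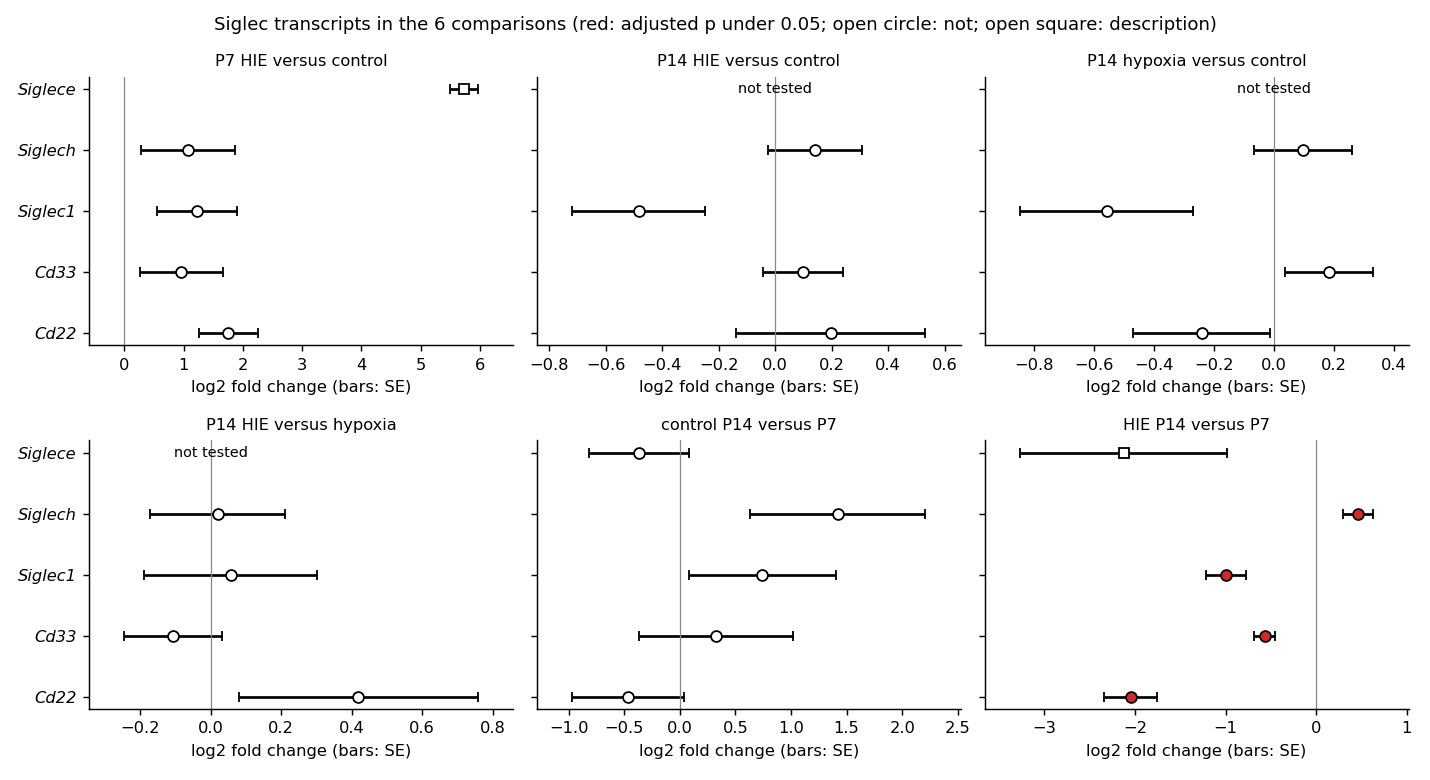
Log2 fold changes of the 5 Siglec genes in 6 comparisons, with SE bars. Filled points passed an adjusted p of 0.05 with edgeR, open circles did not, and squares give Siglece as a description. The filled points are Siglech, Siglec1, Cd33 and Cd22 in HIE animals at P14 against P7, of which Cd22 lies farthest from 0 at -2.05.

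The other 4 Siglec genes were Siglecf, Siglecg, Siglec15 and Mag. Siglecf, known from eosinophils and microglia, was at 30.4 to 36.3 CPM in P7 HIE, 22.7 and 41.1 CPM in P6H55 controls and 4.53 and 3.61 CPM in P6H63 controls. It rose with age in HIE animals by 0.53 (SE 0.13, edgeR adjusted p = 0.00764). In controls its age difference was 1.22 (SE 0.71, edgeR adjusted p = 0.208), and 0.39 without litter P6H63. Siglecg, an inhibitory receptor of B cells and some myeloid cells, was at 2.83 to 4.26 CPM in P7 HIE. With age it rose by 0.72 (SE 0.20, edgeR adjusted p = 0.0129) in HIE animals. In controls the age difference of Siglecg was 1.34 (SE 0.57, edgeR adjusted p = 0.102), and 0.62 without litter P6H63. Mag, the Siglec of the myelin sheath, rose by 2.86 (SE 0.33, edgeR adjusted p = 9.28e-05) in HIE animals and by 3.92 (SE 0.46, edgeR adjusted p = 0.000894) in controls. The 8 oligodendrocyte markers summed to 155 to 308 CPM over the P7 animals and 599 to 3927 CPM over the P14 animals, and their part in the Mag level was not tested. Siglec15 was at 2.34 CPM or less in every animal. Between the ages edgeR called 3 of these 4 genes in HIE animals, beside 46.0% of all genes, and 1 in controls, beside 33.0%. In the P7 comparison and the 3 comparisons within P14, edgeR and DESeq2 called none of these 4. With edgeR 1 (Siglecg in P14 HIE against control) had an unadjusted p under 0.05, beside 9.87% of all genes. With DESeq2 Siglecg had an unadjusted p of 0.00748 there and of 0.0467 in the P7 comparison.

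The genes that act with Siglecs were taken as lists. Of 15 signalling genes, among them Tyrobp, Ptpn6, Ptpn11, Syk and Trem2, edgeR called none in the P7 comparison, where 1 had an unadjusted p under 0.05 and DESeq2 called 1, beside 27.3% and 13.4% of all genes. Within P14 neither tool called any, with 1 to 2 genes at an unadjusted p under 0.05 per comparison, beside 4.53 to 9.87% of all genes. Between the ages in controls edgeR called none, 3 had an unadjusted p under 0.05 and DESeq2 called 3, beside 46.1% and 42.8% of all genes. On P7 the adaptor gene Tyrobp was at 412 ± 19.0 CPM in HIE and 191 ± 170 CPM in controls (SD, n = 4), and Inpp5d, which encodes an inositol phosphatase of inhibitory signalling, at 687 ± 64.7 and 318 ± 276 CPM. In both genes the groups did not overlap, as in 9 of the 15 signalling genes and in 17.1% of all genes. The microglia-marker score did not overlap between these groups either, with or without litter P6H63, and its part was not tested. Without litter P6H63 the log2 fold changes were 0.28 for Tyrobp (SE 0.08, edgeR adjusted p = 0.219) and 0.31 for Inpp5d (SE 0.13, edgeR adjusted p = 0.296).

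Of 10 genes that make and recycle sialic acid, edgeR called 7 between the ages in HIE animals, 6 lower and 1 higher at P14, beside 46.0% of all genes. Slc17a5, which exports sialic acid from lysosomes, fell by 1.17 (SE 0.22, edgeR adjusted p = 0.00152). Npl, a lyase that degrades sialic acid, fell by 1.07 (SE 0.10) and Cmah, which makes the glycolyl form, fell by 0.89 (SE 0.21). Slc35a1, the carrier of activated sialic acid into the Golgi, rose by 0.32 (SE 0.09). In controls only Nanp, a phosphatase of sialic acid synthesis, was called, beside 33.0% of all genes, and it fell by 0.56 (SE 0.17, edgeR adjusted p = 0.0378). The median over the list in HIE animals was -0.47, beside 0.02 over all genes.

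Of the 20 sialyltransferases, which attach sialic acid to glycans, edgeR called 9 between the ages in HIE animals, 5 higher and 4 lower at P14, and 6 of 19 tested in controls, 4 higher and 2 lower. These shares were close to the 46.0% and 33.0% of all genes called. St6gal1, whose product carries the linkage that Cd22 binds, fell by 1.20 (SE 0.10) in HIE animals, from 193 ± 20.5 to 83.3 ± 8.58 CPM (SD, n = 4). St8sia2, a polysialic acid synthase of the developing brain, fell by 1.79 (SE 0.18) and in controls fell by 2.50 (SE 0.46). St3gal1 fell by 0.96 (SE 0.10) and in controls fell by 1.25 (SE 0.23). St8sia5, a ganglioside enzyme, rose by 2.37 (SE 0.23) and in controls by 2.95 (SE 0.39). Among the 4 sialidases, which remove sialic acid, edgeR called Neu4, which rose by 2.58 (SE 0.35) in HIE animals and by 3.11 (SE 0.28) in controls. On P7 edgeR called no gene of the synthesis, sialyltransferase and sialidase lists, while 5 of 10, 11 of 19 and 1 of 4 had an unadjusted p under 0.05 and DESeq2 called 3, 5 and 0. Over all genes these shares were 27.3% and 13.4%. Within P14 edgeR called none either, with 0 to 4 genes per list at an unadjusted p under 0.05, beside 4.53 to 9.87% of all genes. The 4 were among 20 sialyltransferases for HIE against control, beside 9.87% of all genes. In that comparison DESeq2 called 1 sialyltransferase, beside 2.34% of all genes. On P7 St6gal1 had 0.84 on the log2 scale for HIE against control (SE 0.20, edgeR adjusted p = 0.15), with 107 ± 30.3 CPM in controls (SD, n = 4). Its groups did not overlap, as in 17.1% of genes.

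The genes whose log2 CPM was most like each member's over the 20 animals were found among 16482 genes with a mean above 0. For Siglece they were Cd9, a tetraspanin (r = 0.86), Slpi, a protease inhibitor (r = 0.85), and Klk8, a serine protease (r = 0.85). Klk8 was at 3.70 to 5.69 CPM in P7 HIE and at 4.82 CPM in the P4H1 male, and at 1.12 to 2.94 CPM in the other animals. Cd9 and Slpi were high in P7 HIE, with Slpi at 5.37 to 8.99 CPM there and at 0.58 to 2.18 CPM elsewhere, but the P4H1 male had 1.48 CPM of Slpi. Its Cd9 level of 272 CPM was close to the 273 CPM of a P6H55 control.

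For Siglech the nearest genes were Pgcka1, Rps6ka1 and Otulinl (r = 0.99 to 1.00), for Cd33 Slc29a3, Osbpl11 and Fmnl1 (r = 0.99), for Siglec1 P2rx4, Stab1 and Myo9b (r = 0.93 to 0.96) and for Cd22 Rassf4, Ctse and Coro7 (r = 0.94 to 0.96). Rps6ka1 is a kinase, P2rx4 a purinergic channel of microglia, Stab1 a scavenger receptor of macrophages and Ctse a cathepsin. The low P6H63 pair enters all of these values.

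**Figure D5:**
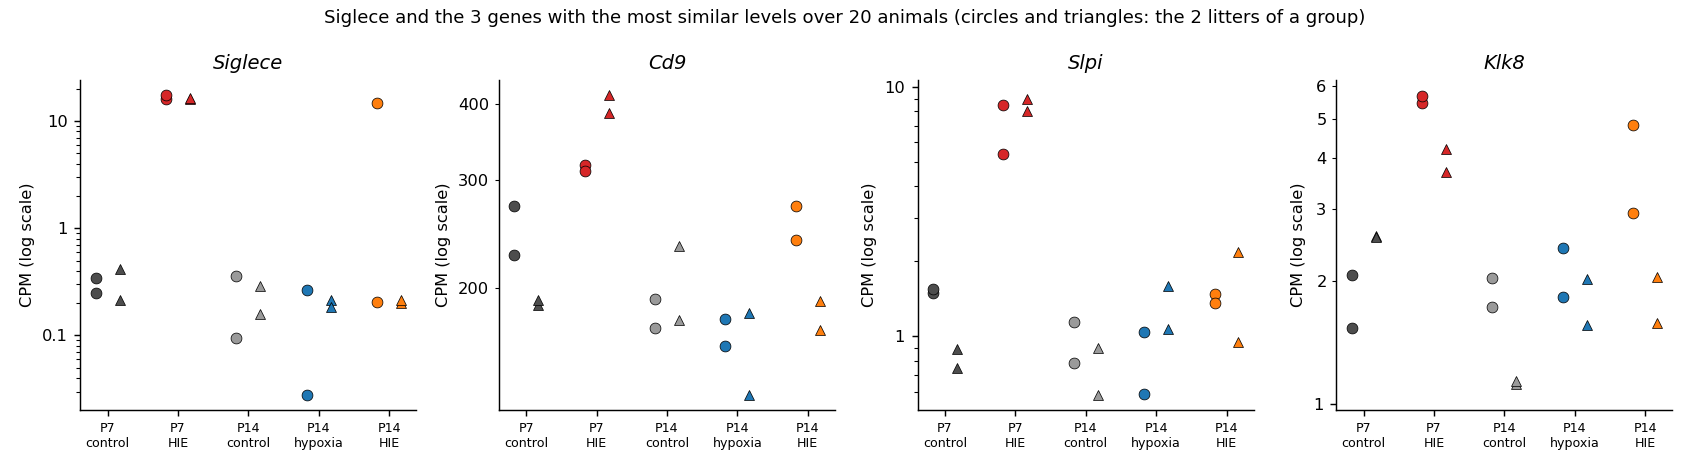
CPM on a log scale of Siglece and of the 3 genes most like it over 20 animals, Cd9, Slpi and Klk8, by group. Circles and triangles are the 2 litters of a group. The P14 HIE male with 14.6 CPM of Siglece is also the highest of its group for Klk8 at 4.82 CPM, but not for Slpi.

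The genes around Siglece were then read in the same animals. Within 250 kb lie 39 other genes, of which 15 passed the low-count filter. Ceacam18, which overlaps Siglece on the plus strand, did not pass it, but its highest level was that of the P4H1 male (0.306 CPM, 13 counts), beside 0 counts in the sister and 0.0528 to 0.139 CPM in P7 HIE. Library strand was kept by the kit, but whether counting used it is not given in the sources used here. Whether reads from the Siglece strand entered the Ceacam18 counts was not tested. Klk8, 137362 bases away, had an r of 0.85 with Siglece, and the next among the 15 was Etfb with 0.63. Zfp719, 54091 bases away, was at 18.8 to 30.7 CPM in all 20 animals and Ctu1, 11189 bases away, at 5.38 to 8.07 CPM. The neighbouring Siglec-like genes Siglecl1 and Siglecl2 stayed at 0.102 CPM or less. Cd33, 104530 bases away, had an r of 0.28 with Siglece.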

How the data were processed

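CD11b+ brain cells of 20 mice were profiled in 22 libraries. The authors prepared stranded total RNA libraries after ribosomal RNA removal, mapped reads to GRCm39 with STAR and deposited RSEM expected counts per gene, without scaling, in 1 table per age. RSEM divides reads that match several genes, and 84.2 to 88.0% of values per library were whole. Here, libraries of an animal were summed and the counts rounded. Of 56691 identifiers, 56017 matched GENCODE M39 and 674 did not. Levels are CPM after TMM normalization over all animals, and log2 CPM used a prior count of 2. Groups came from the labels. Comparisons were made in R 4.3.3 with edgeR 4.0.16 quasi-likelihood fits of the 4 animals per group (filterByExpr, TMM, Benjamini-Hochberg over all tested genes), checked on simulated counts, with SEs from the F statistic. DESeq2 1.42.0, other normalizations, no filter, sex, cohort and litter choices and leaving out each animal were alternatives.

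The members, lists and tests were chosen with earlier results of these data known. Named genes were the members, the other Siglecs, in each list the 3 largest and 3 smallest log2 fold changes that passed or else those of highest CPM (not all are named), genes within 250 kb of Siglece, and the 3 genes most like each member. Of the 16 microglia markers listed, 15 were measured. Some results, among them that of the signalling list between the ages in HIE animals, are not reported here.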

Additional observations from a re-analysis of the deposited data

Results flagged for a closer look

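In P14 HIE animals, Siglece in the male of litter P4H1 (3.87 log2 CPM) was separated from the nearest of the other 3 animals by 0.989 of the group's range. This range was among the values used to choose the gene. In P14 controls, Cd22 in the female of litter P6H8 (2.60 log2 CPM) was separated from the others by 0.832 of the range, which spanned 0.65 log2 CPM. Of 25 combinations of gene and group examined for a sample far from the other 3, about 1 in 20 is flagged by chance.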

How the results depend on the processing

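No paired analysis was possible because the labels give no replicate number, animal or litter shared between groups. With the P4H or P6H name prefix as a term, P14 HIE against control called 0. Of the 4 members other than Siglece on P7, DESeq2 called 1 (Cd22), in a fit that called 3024 of 22517 genes. For these 4 edgeR without litter P6H55 called 4, in a fit that called 13904 of 23780 genes. Without 1 animal edgeR called 0 to 1, the 1 being Cd22 without a P6H55 control. Control P14 against P7 called 2 without litter P6H63, in a fit that called 6920 of 22151 genes. Without 1 animal, HIE P14 against P7 called 3 to 4, and the other counts were 0. Some log2 fold changes, none of them called, changed sign. Relative to the microglia-marker score these were, on P7, Siglec1 (-0.0402) and Cd33 (-0.15), on P14 for HIE against control, Siglech (-0.0691), Cd33 (-0.0917) and Cd22 (-0.11), for HIE against hypoxia, Siglech (-0.0770) and Siglec1 (-0.00151), and in controls with age, Siglec1 (-0.72) and Cd33 (-0.98). With library size only, Siglech in HIE against hypoxia was -0.000938. Without 1 animal, HIE against hypoxia spanned -0.12 to 0.13 for Siglech and -0.10 to 0.30 for Siglec1, and control age differences spanned -0.0571 to 0.89 for Cd33 and -0.78 to 0.0396 for Cd22. Without P6H63, the control age difference was -0.0523 for Siglec1 and -0.51 for Cd33. The cause of these changes was not tested. The P7 comparison of animals labelled male, added after seeing the data and including the pup with Xist, gave 6.13 for Siglece and called none of the other 4.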
